A study of Mus musculus with 59 samples.

Results

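The growth hormone (GH), STAT5 and SOCS axis is described here through 10 of the 24972 genes listed in each of the 4 deposited expression tables: the receptor Ghr, the feedback inhibitors Cish, Socs1, Socs2 and Socs3, the hormone Igf1 with its carrier Igfals, the binding proteins Igfbp1 and Igfbp2, and the repressor Bcl6. The genes were chosen by symbol, after Cish had been seen higher in the liver of mice given hydroxycitrate (HC) and Socs2 had been seen higher in injured gastrocnemius of HC mice at 30 days post injury (DPI). The values of all 10 genes in these 2 comparisons are therefore given as a description, with no test. Socs2 is tested in no comparison of a group from 30 DPI. Its tests at 2 DPI still use a spread estimated over all gastrocnemius libraries, those of 30 DPI included, so they are not free of the values that chose it. In the liver, the group means of Cish were 210 normalized counts with HC and 79.3 without it. In gastrocnemius at 30 DPI, the means of Socs2 were 231 with HC and 110 without it. The rule had no threshold, so no gene lay just inside or outside it.

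GH from the pituitary binds its receptor on hepatocytes, muscle fibers and other cells and activates the kinase JAK2, which phosphorylates the transcription factors STAT5A and STAT5B. In the liver, STAT5 drives transcription of Igf1 and Igfals, and it also drives Cish, Socs2 and Socs3, whose proteins bind the receptor or JAK2 and end the signal. In rodents the pulsatile GH secretion of males and the steadier secretion of females set many sex-biased liver genes through STAT5 and the repressors BCL6 and CUX2. Igfbp1 is known to rise with fasting and to fall with insulin.

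HC is a competitive inhibitor of ATP citrate lyase (ACLY), the enzyme that makes cytosolic acetyl-CoA from citrate. Liver and soleus came from male C57BL/6 mice of 41 weeks of age, on a standard diet with 7.5 g/kg of potassium hydroxycitrate for 21 weeks (HC) or the same diet without it (STD), all fasted for 16 h before sampling, with 5 libraries in each group. Gastrocnemius came from male C57BL/6 mice of 6 months that received 10 µM cardiotoxin (CTX), a toxin that destroys muscle fibers, in the left hind limb, with or without HC in the diet, sampled at 2 or 30 DPI (CTX-HC 2 DPI, CTX 2 DPI, CTX-HC 30 DPI and CTX 30 DPI), or were not injected (C), with 3 libraries in each group. AML12 cells are a hepatocyte line from a mouse transgenic for human TGFα, grown in medium with dexamethasone, insulin, transferrin and selenium, and were given siRNA against Acly (siAcly) or a control siRNA (siC) and then 1 mM HC, 10 µM SB-204990 (SB), 30 µM bempedoic acid (Bemp) or no compound (Ut) for 16 h, with 3 libraries in each of 8 groups. All 3 compounds inhibit ACLY. In bulk tissue, fewer cells of a type and less RNA per cell cannot be told apart.

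Values are normalized counts, which is each library's gene counts divided by its size factor. The estimated depth of the liver libraries was 7.70 to 13.1 M reads, that of soleus 8.93 to 11.2 M, that of gastrocnemius 16.0 to 34.9 M and that of the cell line 7.31 to 16.3 M. Several libraries stood apart from their group. STD liver 5 held muscle fiber markers (summed value 691, against 0 to 1.19 in the other 9 livers), and the gastrocnemius libraries CTX-HC 30 DPI 3 and CTX 30 DPI 1 held macrophage markers at 5497 and 6482, against 660 to 980 in the other 4 libraries of 30 DPI and 957 to 4788 in C muscle. CTX-HC 30 DPI 3 also held lymphocyte markers at 5458, against 40.9 to 594 in the other libraries of 30 DPI, and adipocyte markers at 1223, against 77.6 to 153. CTX 2 DPI 3 held macrophage and neutrophil markers at 2418 and 26.3, which is within the range of C muscle, against 9640 to 13349 and 203 to 393 in the other CTX 2 DPI libraries. In AML12 cells, Acly itself was 215 to 599 in the 12 siAcly libraries and 2576 to 3860 in 11 of the 12 siC libraries, whereas the library labelled siC Bemp 1 stood at 404. The library labelled siC Ut 3 held Cyp1a1, a drug-metabolizing enzyme, at 917, within the 678 to 1255 of the Bemp libraries. The 24 AML12 libraries also fell into 3 sets of 8 (A, B and C) that crossed the groups in part. No siC Ut library was in set C, no siAcly Ut library in set A and no siC Bemp library in set B, so comparisons with these groups are partly comparisons of sets.

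STAT5 binds DNA at the palindrome TTCNNNGAA, so the start regions of the genes that carry it are shown for Cish, which chose the liver comparison, and for Bcl6 and Socs3. RefSeq promoters (build GRCm38.p6, 250 bases before to 50 after a transcript start) were found for 9 of the 10 genes, 14 promoters in all. The palindrome, which reads the same on both strands, was present in 6 of these 14, from the genes Cish, Bcl6, Igfals and Socs3, and in 8.3% of all 32851 promoters. In the stretches below, written 5′ to 3′ on the gene's strand, the capitals mark each match. The Bcl6 and Socs3 stretches precede RefSeq transcript starts that lie inside the annotated gene, and the Bcl6 start nearest the gene's 5′ end had 1 match.
Cish, chr9:107296409-107296678, plus strand: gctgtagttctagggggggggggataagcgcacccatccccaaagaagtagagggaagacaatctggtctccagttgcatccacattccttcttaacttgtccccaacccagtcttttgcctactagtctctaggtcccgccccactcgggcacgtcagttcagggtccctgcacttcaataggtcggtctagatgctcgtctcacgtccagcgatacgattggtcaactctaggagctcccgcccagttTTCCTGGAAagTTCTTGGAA
Bcl6, chr16:23981284-23981533, minus strand: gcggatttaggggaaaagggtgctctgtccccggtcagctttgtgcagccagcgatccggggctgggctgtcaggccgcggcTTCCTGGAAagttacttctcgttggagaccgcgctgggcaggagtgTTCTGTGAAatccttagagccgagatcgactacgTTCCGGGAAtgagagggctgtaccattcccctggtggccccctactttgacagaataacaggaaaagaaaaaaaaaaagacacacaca
Socs3, chr11:117969367-117969616, minus strand: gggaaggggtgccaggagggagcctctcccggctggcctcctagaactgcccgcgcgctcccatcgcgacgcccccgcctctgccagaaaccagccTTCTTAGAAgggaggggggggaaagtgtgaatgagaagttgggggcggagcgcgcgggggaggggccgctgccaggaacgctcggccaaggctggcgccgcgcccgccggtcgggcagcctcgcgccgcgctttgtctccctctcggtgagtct
Cish carried 2 matches, TTCCTGGAA at the transcript start itself and TTCTTGGAA 11 bases after it, and the Bcl6 stretch carried 3. More than 1 match was found in 0.457% of all promoters. A match is a description of the letters and was not measured as a binding site in this series.

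The axis was laid out differently in the tissues (plot of levels by tissue). Ghr (chr15:3317755-3583352) averaged 373 CPM (counts scaled to a common library sum) in liver, 108 in gastrocnemius, 105 in soleus and 15.9 in AML12 cells. The gastrocnemius means pool injured and uninjured muscle, and in C muscle alone Ghr averaged 143 CPM. The endocrine genes followed the liver. Igf1 (chr10:87858265-87937047) averaged 471 CPM in liver, 28.3 in gastrocnemius, 7.09 in soleus and 0.884 in AML12 cells. Igfals (chr17:24877844-24882011), which holds IGF1 in a stable complex in blood, averaged 118 in liver and 7.80 in AML12 cells, against 1.59 in gastrocnemius and 1.79 in soleus. The insulin-suppressed binding protein Igfbp1 (chr11:7197787-7202546) averaged 123 CPM in liver and 0.249 in AML12 cells. Igfbp2 (chr1:72824480-72852474) averaged 910 in liver and 0.0124 in AML12 cells, where 22 of 24 libraries were at 0. Igf1, Igfbp1 and Igfbp2, abundant in liver, were thus near 0 in AML12 cells.

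The inhibitors followed another order. Cish (chr9:107296659-107302784) averaged 22.9 CPM in AML12 cells and 16.3 in liver, against 11.5 and 9.67 in soleus and gastrocnemius muscle, and these ranges overlapped widely. The soleus mean was set by STD soleus 5, at 92.1 CPM. The other soleus libraries lay at 1.29 to 5.73 CPM, below the gastrocnemius mean. Socs2 (chr10:95383903-95417321) averaged 18.5 in liver, 9.19 in AML12 cells, 7.02 in gastrocnemius and 5.30 in soleus. Socs3 (chr11:117966079-117970336), the inhibitor that also answers IL-6, averaged 39.3 in AML12 cells, 21.1 in gastrocnemius, 14.9 in liver and 4.996 in soleus. Its place in gastrocnemius depended on injury. Socs3 averaged 44.2 CPM in CTX-HC 2 DPI muscle and 42.9 in CTX 2 DPI muscle, against 5.84 in C muscle, which is below liver. Bcl6 (chr16:23965050-23988866) was the gene of the axis with its highest levels in muscle, 128 CPM in soleus and 123 in gastrocnemius, against 25.0 in liver and 15.3 in AML12 cells. Socs1 (chr16:10783808-10785536) stayed low, 2.20 in AML12 cells, 2.17 in gastrocnemius, 0.532 in soleus and 0.363 in liver. The 4 tables were normalized separately and made with different library kits, so these levels were not tested between tissues.

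**Figure D1:**
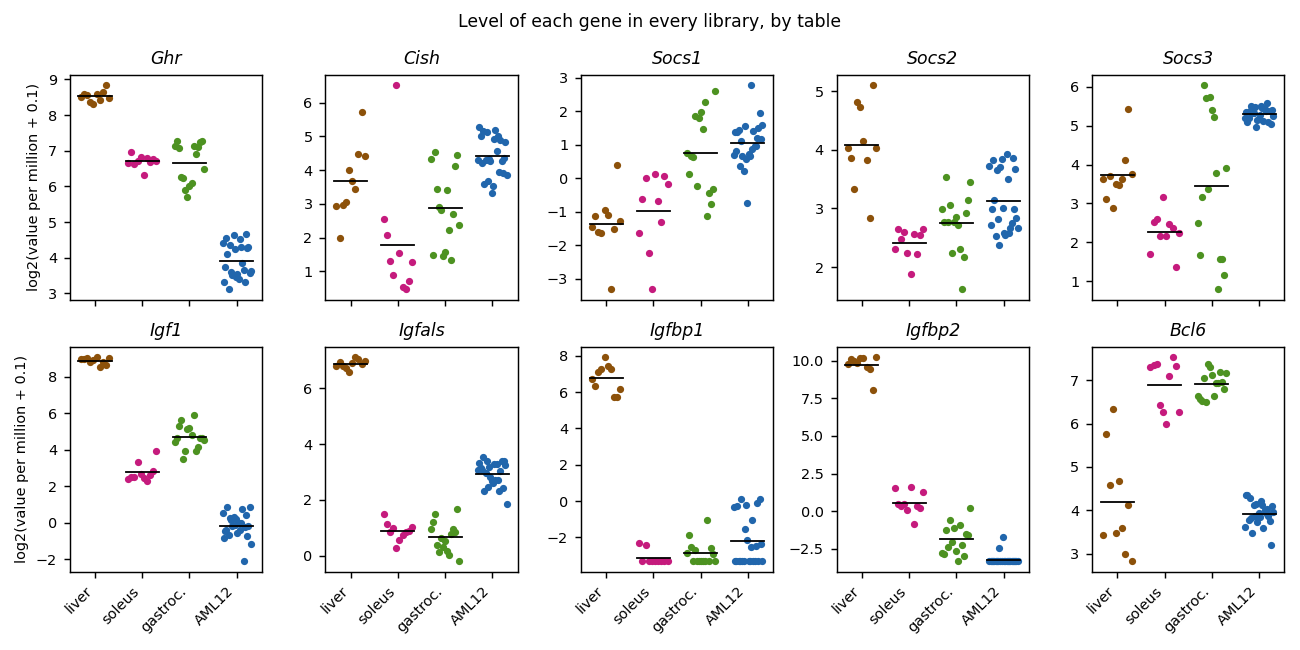
Level of each of the 10 genes in every library of liver, soleus, gastrocnemius and AML12 cells, as log2(CPM + 0.1), where CPM is the value scaled to a common library sum, with 1 point for each library and a line at the mean. Ghr, Igf1, Igfals, Igfbp1 and Igfbp2 were highest in liver, and Bcl6 was highest in the 2 muscles.

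Cish was higher in HC livers than in STD livers in most, not all, pairs of libraries. It stood at 116, 101, 202, 435 and 198 normalized counts in the 5 HC livers, against 70.3, 35.5, 75.7, 75.3 and 140 in the 5 STD livers. The groups overlapped through STD liver 5, whose value lay above HC livers 1 and 2. STD liver 5 was the library with muscle fiber markers. The log2 difference of HC over STD was 1.32 (SE 0.39), and it was 1.01 to 1.56 when each library in turn was left out. Both use the values that chose the gene. Of the 11497 liver genes tested with limma, 0 (0%) passed an adjusted p of 0.05, and 488 had an unadjusted p under 0.05. That share gives the background of this comparison and nothing is read from it for the 10 genes, of which 9 passed the limit on low values.

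The other inhibitors did not share one pattern. Socs3 stood at 101, 114, 157, 355 and 124 in HC livers, against 112, 77.6, 127, 66.5 and 99.2 in STD livers, a log2 difference of 0.68 (SE 0.30). The difference was 0.38 without HC liver 4, and the remaining 4 HC livers overlapped the STD range. Socs2 stood at 162, 131, 64.0, 287 and 150 in HC livers, against 149, 132, 97.6, 256 and 233 in STD livers, with a log2 difference of -0.19 (SE 0.35), -0.44 to 0.09 with 1 library left out and -0.06 without STD liver 5. Socs1 was at 0 to 10.1 in HC livers and 2.04 to 3.67 in STD livers, under the limit on low values.

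Bcl6, a STAT5-repressed gene in mouse liver, went the other way from Cish in its mean. It stood at 232, 112, 70.6, 145 and 64.4 in HC livers, against 98.7, 498, 233, 737 and 97.4 in STD livers. The log2 difference was -1.11 (SE 0.54), or -1.44 without STD liver 5, and the STD group held both the 2 highest livers and 2 low ones. Ghr differed little, at 3518 ± 258 in HC livers and 3276 ± 370 in STD livers (SD, n = 5 each). Its log2 difference was 0.11 (SE 0.09).

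The hormone and its carrier had close means in both groups, while the binding proteins were spread widely among HC livers. Igf1 averaged 4079 ± 757 in HC livers and 4529 ± 426 in STD livers (SD, n = 5 each), a log2 difference of -0.17 (SE 0.12). Igfals averaged 1145 in HC livers and 1006 in STD livers, a difference of 0.19 (SE 0.10). Igfbp1 stood at 1607, 1437, 475, 436 and 663 in HC livers, against 971, 746, 1338, 1392 and 2162 in STD livers, which is a log2 difference of -0.64 (SE 0.38) with overlap, or -0.44 without STD liver 5. HC livers 3, 4 and 5 lay below the whole STD range and the other 2 above most of it. Igfbp2 stood at 10687, 6934, 6253, 2163 and 11263 in HC livers, against 7903, 10207, 9636, 8382 and 9995 in STD livers, a difference of -0.51 (SE 0.35), or -0.11 without HC liver 4. All 5 HC values lay outside the STD range, 3 below it and 2 above it.

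HC liver 4 was the library that moved furthest in several genes of the axis at once. It had the highest Cish, Socs2 and Socs3 of the 10 livers and the lowest Igf1 and Igfbp2. Across the 10 livers, Cish and Socs3 had a Pearson r of 0.82 on the log2 scale, Igf1 and Igfbp2 one of 0.80, and Socs3 and Igfbp2 one of -0.85. These correlations share libraries and lean on HC liver 4, and they are given as a description. The genes of the whole table whose pattern over the 10 livers was most like that of Cish were Ly6d (r 0.92), Cd72 (0.91), 4931406C07Rik (0.91), Chac1 (0.90) and Psd4 (0.90).

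**Figure D2:**
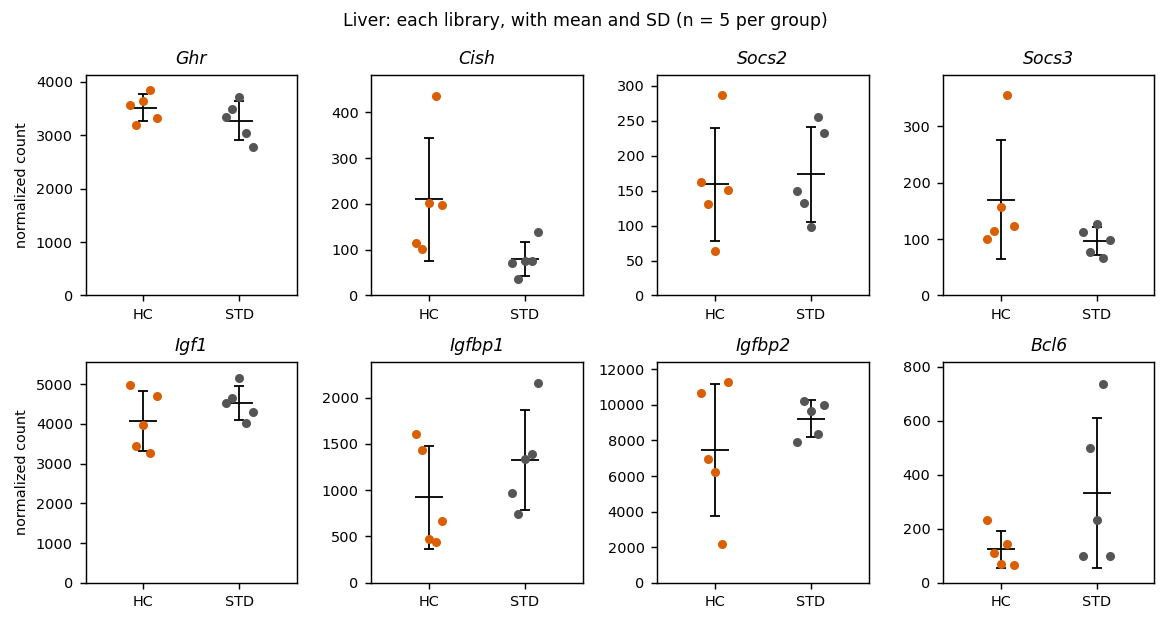
Normalized counts of 8 genes of the axis in the liver of HC mice and STD mice on a linear axis, with 1 point for each library, a line at the group mean and bars for the SD (n = 5 each). Cish stood at 101 to 435 in HC livers and 35.5 to 140 in STD livers, and HC liver 4 was the highest point for Cish, Socs2 and Socs3.

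Genes that depend on the GH pattern were read in the same livers from lists written from general knowledge. The lists were drawn up with earlier results of these data known, so their counts are a description and no independent check. The male-biased list holds Gstp1, which the paper reports as lower in HC liver. All 19 male-biased genes of the list passed the limit on low values. Here and for the other lists, higher or lower means are means on the log2 scale. All 19 had lower means in HC livers, and 12 had an unadjusted p under 0.05 by limma. The median log2 difference was -0.66 beside -0.01 over all genes tested. Serpina12 was close to even (-0.03), and its average counts were 301 in HC livers and 297 in STD livers. None (0 of 19) passed the adjusted threshold, as in the whole table. In the single HC livers 1 to 5, 17, 17, 18, 18 and 12 of the 19 genes lay below the STD mean, against 7, 14, 9, 6 and 8 in STD livers 1 to 5. HC liver 5 thus lay within the range of the STD livers by this count, and the other 4 HC livers above it. With each library left out in turn, 18 or 19 of the genes had lower means and the median ranged from -0.81 to -0.59.

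Named after their values were seen, 3 members of that list had no overlap between the groups, all 3 lower in HC livers, as had 34 of the 11497 genes tested (0.296%). Mup7, which codes for a major urinary protein, a male pheromone carrier made in the liver, stood at 45271, 7145, 36373, 869 and 52609 in HC livers, against 58589, 57922, 84156, 82576 and 60818 in STD livers (log2 difference -2.28, SE 0.90). Mup1 of the same family stood at 2592, 652, 1733, 114 and 3055 in HC livers, against 3209, 3402, 5618, 4310 and 4709 in STD livers (log2 difference -2.05). Mup genes are near-identical copies, so reads may be split among them. Cyp2d9, a steroid hydroxylase, stood at 14257, 11464, 11769, 8934 and 16925 in HC livers, against 18226, 17525, 20203, 21768 and 18816 in STD livers (log2 difference -0.64). All 3 lay lowest in HC liver 4, and Gstp1, a glutathione transferase with a log2 difference of -1.09 (SE 0.20), had the smallest adjusted p of the list, 0.514 by limma.

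Of the 19 female-biased genes of the second list, 8 passed the limit on low values. On the log2 scale, means were higher in HC livers for 6 of these 8, with a median difference of 0.38. That median ranged from 0.10 to 0.58 when 1 library was left out. Cyp17a1, counted as higher (0.02), had average counts of 156 in HC livers and 163 in STD livers. In the single HC livers 1 to 5, 7, 5, 5, 5 and 4 of the 8 genes lay above the STD mean, against 4, 6, 8, 5 and 2 in STD livers 1 to 5, so these counts overlapped. The steroid hydroxylase Cyp2b9 stood at 369, 1512, 195, 1769 and 13.6 in HC livers, against 7.20, 22.1, 28.4, 2.75 and 50.97 in STD livers, so 4 of the HC livers lay above all STD livers and HC liver 5 did not (log2 difference 4.26, adjusted p 0.995 by limma). HC liver 5 was also the HC liver with the fewest male-biased genes below the STD mean. Cux2, the female-biased repressor, was among the 2 with lower means, at 25.9, 3.98, 6.94, 3.09 and 2.11 in HC livers, against 17.8, 21.975, 20.999, 26.3 and 3.78 in STD livers (log2 difference -1.30, SE 0.61, adjusted p 0.995). Among 9 other STAT5 targets, 7 had higher means on the log2 scale in HC livers (median 0.25). Lepr, counted as lower (-0.83), had average counts of 166 in HC livers and 134 in STD livers. Ccnd1, a cell cycle gene of that list, stood at 291, 522, 259, 181 and 186 in HC livers, against 119, 133, 72.9, 132 and 171 in STD livers (log2 difference 1.13, adjusted p 0.995), without overlap and higher in HC livers, as were 37 (0.322%) of all genes tested.

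In the list of FOXO1 and insulin responsive genes, 10 of 12 had lower means in HC livers (median -0.24). Pck1, a gluconeogenic enzyme that fasting induces, averaged 38512 in HC livers and 53541 in STD livers (log2 difference -0.47), and Tat, which breaks down tyrosine, averaged 12360 in HC livers and 20231 in STD livers (-0.72). The receptors, JAK kinases and STATs had a median of -0.03 over 13 genes, and the other SOCS genes and negative regulators one of -0.02 over 14. No gene of these lists passed the adjusted threshold, and Gstp1, Cyp2b9, Cux2, Ccnd1, Pck1 and Tat were likewise named after their values were seen.

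**Figure D3:**
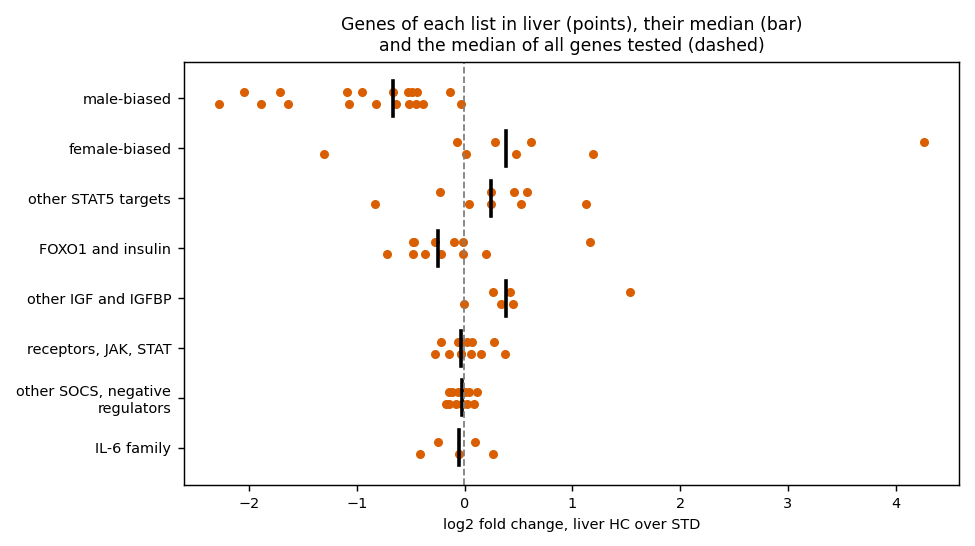
Log2 difference of HC over STD liver for each tested gene of the lists, with 1 point for each gene and the median of each list. The lists were drawn up with earlier results of these data known. All 19 male-biased genes lay below 0 (median -0.66), and 6 of 8 female-biased genes lay above it (median 0.38).

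In soleus of the same treatment, Cish did not repeat the liver pattern. It stood at 28.3, 13.3, 12.6, 14.4 and 21.1 in HC soleus, against 58.3, 38.8, 22.7, 16.6 and 917 in STD soleus. The log2 difference was -1.77 (SE 0.84, adjusted p 0.979 by limma). STD soleus 5 carried most of it, and without that library the difference was -0.80 (adjusted p 0.725). Of the 12067 genes tested, 0 (0%) were called and 609 had an unadjusted p under 0.05. Of the 8 genes of the axis that passed the limit on low values, 0 were called and 0 had an unadjusted p under 0.05.

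The receptor and the other inhibitors lay close together in soleus. Ghr averaged 977 ± 106 in HC soleus and 1049 ± 94.5 in STD soleus (SD, n = 5 each), a log2 difference of -0.11 (SE 0.09). Socs2 averaged 49.6 ± 9.06 in HC soleus and 52.4 ± 5.21 in STD soleus, a log2 difference of -0.09 (SE 0.16). Socs3 averaged 42.3 ± 11.5 in HC soleus and 54.5 ± 21.6 in STD soleus, a difference of -0.33 (SE 0.28). The group ranges overlapped for all 3. Their adjusted p was 0.999, and so was that of Igf1 (0.14, SE 0.27), Igfals (-0.15, SE 0.24), Igfbp2 (-0.08, SE 0.44) and Bcl6 (-0.12, SE 0.31).

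Bcl6 varied widely within both soleus groups, at 644, 1340, 1827, 1519 and 700 in HC soleus, against 1623, 1541, 1570, 826 and 772 in STD soleus. The low values stood in HC soleus 1 and 5 and in STD soleus 4 and 5. Igfbp2 was highest in HC soleus 1 (30.4) and HC soleus 5 (20.9) and in STD soleus 1 (28.3), where the summed hepatocyte markers were also highest, 868, 786 and 1618, against 21.6 to 487 in the other 7 libraries. The part of these hepatocyte transcripts in the Igfbp2 values was not tested.

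After cardiotoxin, the receptor was lower at 2 DPI. Ghr stood at 861, 1225 and 1495 in CTX-HC 2 DPI muscle and at 1815, 1595 and 1716 in CTX 2 DPI muscle, against 3718, 4661 and 3398 in C muscle. Neither injured group overlapped C. Of all genes tested, 25.2% likewise lay wholly below C in CTX-HC 2 DPI muscle and 15.6% in CTX 2 DPI muscle. Relative to C, the log2 difference of Ghr was -1.74 (SE 0.30, adjusted p 0.0128 by limma) in CTX-HC 2 DPI muscle, which passed the threshold. It was -1.19 (SE 0.30, adjusted p 0.206) in CTX 2 DPI muscle, which did not. The difference of CTX-HC over CTX at 2 DPI was -0.55 (SE 0.30, adjusted p 0.662), which did not pass either.

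Socs2 was the other gene of the axis that passed the test in CTX-HC 2 DPI muscle. It stood at 111, 135 and 142 in CTX-HC 2 DPI muscle and at 159, 176 and 133 in CTX 2 DPI muscle, against 208, 202 and 290 in C muscle. Relative to C, the log2 difference was -0.83 (SE 0.22, adjusted p 0.0394) with HC and -0.57 (SE 0.22, adjusted p 0.307) without it. Socs2 of CTX-HC and CTX muscle at 2 DPI overlapped, with a difference of -0.26 (SE 0.22, adjusted p 0.709).

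In the comparison of CTX-HC 2 DPI with C, 1393 of 14033 genes (9.93%) were called, 749 higher and 644 lower, and 2 of the 9 genes of the axis that passed the limit on low values were called, both lower. In that of CTX 2 DPI with C, 0 genes (0%) were called, 2095 had an unadjusted p under 0.05, and 0 of the 9 genes were called, 3 of them (Ghr, Socs2 and Socs3) with an unadjusted p under 0.05. In that of CTX-HC 2 DPI with CTX 2 DPI, 0 genes (0%) were called, 1005 had an unadjusted p under 0.05, and none of the 9 genes was among either. Both calls rested on few libraries. The call of Ghr was lost without C 1 (adjusted p 0.0539), C 2 (0.0786) or CTX-HC 2 DPI 1 (0.0747), and that of Socs2 without C 1, C 2 or C 3 (0.0863, 0.128 and 0.0988) or CTX-HC 2 DPI 1 or 2 (0.169 and 0.0959). The log2 difference was negative in each case. The count over all genes was as mobile, 33 to 2141 when 1 library of either group was left out.

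Socs3 moved the other way at 2 DPI. It stood at 884, 794 and 818 in CTX-HC 2 DPI muscle and at 1556, 1115 and 291 in CTX 2 DPI muscle, against 146, 94.0 and 223 in C muscle. Both injured groups lay wholly above C. Of all genes tested, 25.7% likewise lay wholly above C in CTX-HC 2 DPI muscle and 13.5% in CTX 2 DPI muscle. The log2 difference of Socs3 was 2.51 (SE 0.75, adjusted p 0.0518) in CTX-HC 2 DPI muscle and 2.45 (SE 0.75, adjusted p 0.257) in CTX 2 DPI muscle. The SD was 46.6 in CTX-HC 2 DPI muscle and 642 in CTX 2 DPI muscle, whose library 3 held the low value. That library also held the low macrophage and neutrophil markers given above, and their part in the Socs3 value was not tested.

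Igfals stood at 18.7, 25.6 and 22.2 in CTX-HC 2 DPI muscle and at 28.5, 21.5 and 41.9 in CTX 2 DPI muscle, against 48.7, 66.4 and 67.4 in C muscle. Relative to C its log2 difference was -1.41 (SE 0.54, adjusted p 0.0891) with HC and -1.002 (SE 0.54, adjusted p 0.388) without it. Cish was variable in every group, at 43.9, 54.4 and 233 in CTX-HC 2 DPI muscle and 254, 159 and 199 in CTX 2 DPI muscle, against 536, 81.1 and 581 in C muscle. Its differences relative to C were -1.82 (SE 0.84, adjusted p 0.139) with HC and -0.55 (SE 0.84, adjusted p 0.75) without it. Igf1, which macrophages of injured muscle also produce, averaged 628 ± 61.6 in CTX-HC 2 DPI muscle and 610 ± 480 in CTX 2 DPI muscle, against 764 ± 210 in C muscle (SD, n = 3 each), with overlap. Bcl6 overlapped between the injured groups and C, at 2181 to 2669 in CTX-HC 2 DPI muscle and 1932 to 4768 in CTX 2 DPI muscle, against 2321 to 2849 in C muscle.

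Cell composition moved with these differences. Summed macrophage markers were 7331 to 32573 in CTX-HC 2 DPI muscle and 2418 to 13349 in CTX 2 DPI muscle, against 957 to 4788 in C muscle. Summed muscle fiber markers were 864190 to 1265000 in CTX-HC 2 DPI muscle and 1260900 to 2366000 in CTX 2 DPI muscle, against 2237800 to 3078200 in C muscle. Scaled to 1000000 of summed fiber markers, Ghr was 997 to 1182 in CTX-HC 2 DPI muscle and 726 to 1265 in CTX 2 DPI muscle, against 1514 to 1643 in C muscle. On this scale the Ghr values of both injured groups lay below those of C. On the same scale Socs2 was 113 to 128 in CTX-HC 2 DPI muscle and 56.05 to 139 in CTX 2 DPI muscle, against 65.5 to 130 in C muscle. Socs2 overlapped between all 3 groups on this scale. The part of cell composition in the differences of Ghr and Socs2 was not tested.

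Around the axis, 13 genes of the lists passed the test in CTX-HC 2 DPI muscle relative to C, beside the 9.93% called over all genes. With 1 library of either group left out this count was 0 to 15, and it was 0 without C 1, C 2 or CTX-HC 2 DPI 1, 1 without CTX-HC 2 DPI 2 and 5 without C 3. Stat5b, the STAT that carries most of the GH signal in muscle and liver, stood at 4012, 4398 and 4786 in CTX-HC 2 DPI muscle and at 7043, 4828 and 9798 in CTX 2 DPI muscle, against 9398, 9894 and 9366 in C muscle (CTX-HC over C -1.12, SE 0.31, adjusted p 0.0424). Stat3, which carries IL-6 signals, stood at 4309, 4479 and 3820 in CTX-HC 2 DPI muscle and at 5444, 4300 and 3450 in CTX 2 DPI muscle, against 2196, 1428 and 2836 in C muscle (1.02, SE 0.26, adjusted p 0.0345). Stat5b fell and Stat3 rose relative to C in the HC group. Of the receptor, kinase and STAT list, 1 of 12 tested genes rose and 2 fell, the insulin receptor substrate Irs2 being the other that fell (-1.24).

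Of the other SOCS genes and negative regulators, 2 of 14 rose and 1 fell. Ptpn1, a phosphatase that acts on JAK2, rose by 0.92 on the log2 scale, and Pias3, an inhibitor of STAT3, rose by 0.83. Socs7 fell by 0.79. Of 8 genes of the IL-6 family, the receptor Lifr fell by 0.85 while 6 of the 8 means were higher, with a median of 1.58. Among 9 other STAT5 targets the survival gene Bcl2l1 rose by 1.07 and Gadd45g, a stress response gene, fell by 2.41. The activin receptor Acvr2b fell by 1.40, the single call among 15 muscle growth regulators. Srebf1, Trim24 and Abcd2, which stand in lists drawn up for liver, fell by 1.82, 1.27 and 1.84.

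At 30 DPI, Socs2 lay wholly higher in the HC group than in the untreated injured group, as did 201 (1.43%) of 14033 genes. It stood at 207, 261 and 224 in CTX-HC 30 DPI muscle and at 113, 85.1 and 131 in CTX 30 DPI muscle, against 208, 202 and 290 in C muscle. The log2 difference of CTX-HC over CTX was 1.08 (SE 0.22), given with no test since it chose the gene. It was 0.91 to 1.22 when 1 library was left out and 1.13 without CTX 30 DPI 1 and CTX-HC 30 DPI 3, the libraries that stood apart in cell markers. Relative to C, the log2 difference of Socs2 was -0.0015 in CTX-HC 30 DPI muscle and -1.08 in CTX 30 DPI muscle. Scaled to 1000000 of fiber markers, Socs2 was 78.7 to 204 in CTX-HC 30 DPI muscle and 30.6 to 57.01 in CTX 30 DPI muscle, also without overlap. Both the ranges with libraries left out and this scaling use the values that chose the gene.

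The other inhibitors did not separate at 30 DPI. Cish stood at 483, 648 and 103.9 in CTX-HC 30 DPI muscle and at 107.5, 69.9 and 191 in CTX 30 DPI muscle, against 536, 81.1 and 581 in C muscle. The log2 difference of CTX-HC over CTX was 1.49 (SE 0.84), with overlap through CTX-HC 30 DPI 3, and 2.26 without CTX-HC 30 DPI 3 and CTX 30 DPI 1. Without the same libraries it was 0.15 for Socs3, beside 0.08 with them, and 0.24 for Ghr, beside -0.12 with them. Socs3 stood at 78.7, 63.4 and 304 in CTX-HC 30 DPI muscle and at 320, 46.7 and 85.8 in CTX 30 DPI muscle, against 146, 94.0 and 223 in C muscle. The 2 high values were those of the 2 libraries that stood apart, and Socs1 followed them, at 124 in CTX-HC 30 DPI 3 and 111 in CTX 30 DPI 1, against 10.3 to 20.9 in the other 4. Ghr was 4177, 4662 and 1840 in CTX-HC 30 DPI muscle and 3251, 3417 and 4106 in CTX 30 DPI muscle. The low value was again CTX-HC 30 DPI 3, whose fiber marker sum was 1095100. Scaled to 1000000 of fiber markers, Ghr was 1404 to 1680 in CTX-HC 30 DPI muscle, against 1226 to 1636 in CTX 30 DPI muscle.

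Of the 14033 genes tested, 0 (0%) were called in CTX-HC 30 DPI against CTX 30 DPI, 0 (0%) in CTX-HC 30 DPI against C and 0 (0%) in CTX 30 DPI against C, with 106, 388 and 437 at an unadjusted p under 0.05. Of the 8 genes of the axis tested against C at 30 DPI, 0 were called by limma in either group and 0 had an unadjusted p under 0.05, with adjusted p values of 1. Igf1 in CTX-HC 30 DPI muscle was 689, 732 and 472, against 1397, 429 and 523 in CTX 30 DPI muscle, and the high value stood in CTX 30 DPI 1. Bcl6 was 3469, 3354 and 2943 in CTX-HC 30 DPI muscle and 2852, 3532 and 4359 in CTX 30 DPI muscle, against 2321 to 2849 in C muscle. Its log2 differences relative to C were 0.32 and 0.44 (SE 0.26, adjusted p 1).

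**Figure D4:**
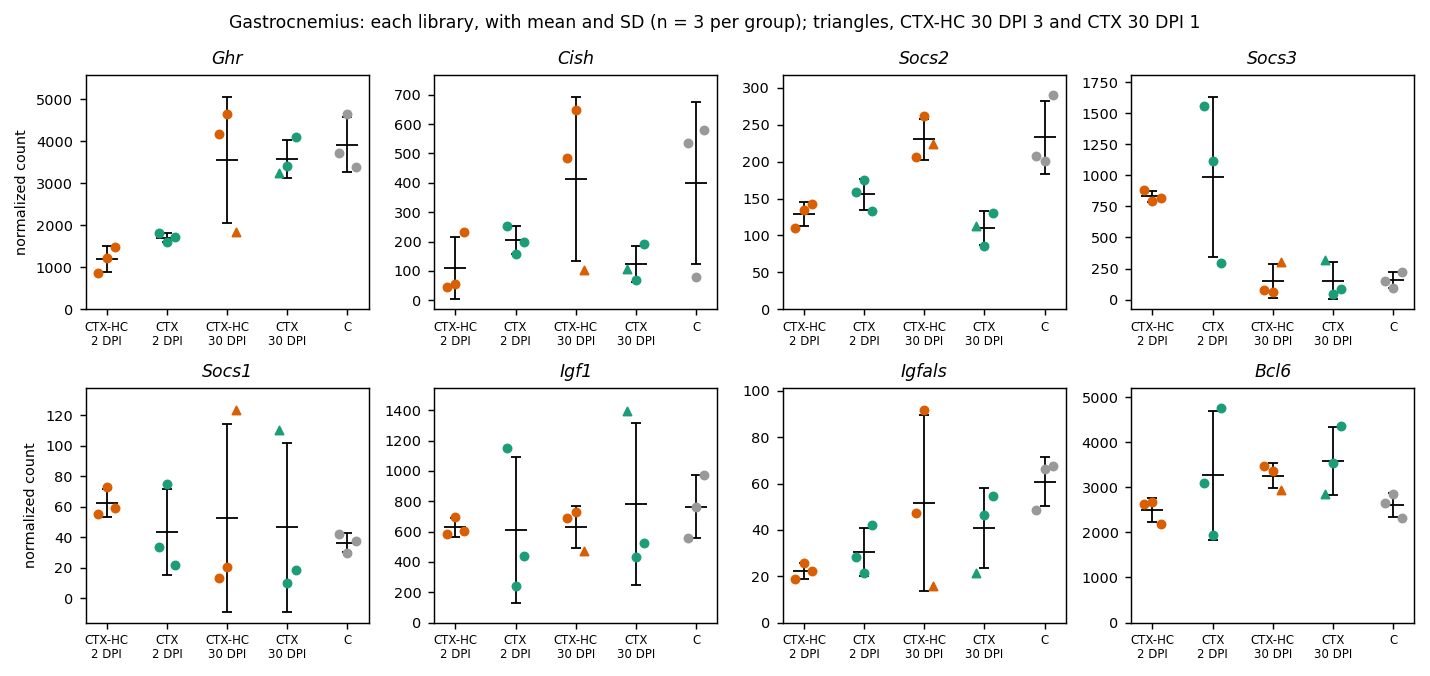
Normalized counts of 8 genes of the axis in gastrocnemius, with 1 point for each library (n = 3 in a group), a line at the group mean and bars for the SD, for CTX-HC 2 DPI, CTX 2 DPI, CTX-HC 30 DPI, CTX 30 DPI and C. Triangles are CTX-HC 30 DPI 3 and CTX 30 DPI 1, the libraries of 30 DPI that stood apart in cell markers. Ghr lay at 861 to 1815 in both groups of 2 DPI, below C at 3398 to 4661, and Socs2 lay at 207 to 261 in CTX-HC 30 DPI muscle, above CTX 30 DPI muscle at 85.1 to 131.

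Over the 15 gastrocnemius libraries, Ghr had a Pearson r of -0.85 with Socs3 and of 0.79 with Igfals on the log2 scale, and Cish had one of 0.68 with Socs2. The injury groups set much of these values, which are a description. The genes most like Socs2 in pattern were Ush1g (r 0.81), Ttll4 (0.79), Pdp2 (0.75), Chd6 (0.73) and Zfp661 (0.70), and those most like Igf1 were H2-T22 (0.85), Erap1 (0.83), Zfp947 (0.77), Rnf2 (0.76) and Gm10509 (0.74).

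In AML12 cells, no gene of the axis passed the test when Acly was lowered. Of 12296 genes tested, 23 (0.187%) were called for siAcly against siC in Ut cells and 586 (4.77%) over the mean of the 4 treatments. Without the libraries labelled siC Bemp 1 and siC Ut 3 these counts were 1 and 296. Of the 8 genes of the axis that passed the limit on low values, 0 were called in either, by limma, and the count at an unadjusted p under 0.05 was 0 in Ut cells and 1 over the mean of the treatments. That gene was Socs1, which averaged 33.2 in siAcly cells and 21.2 in siC cells (log2 difference 0.59, SE 0.27, adjusted p 0.192). It held its highest value, 87.9, in siAcly Ut 3. Socs3 in Ut cells was 509, 565 and 567 with siAcly, against 426, 492 and 398 with siC (0.32, SE 0.16, adjusted p 0.294).

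The ACLY inhibitors did not move the axis past the test either. Against Ut in siC cells, 0 genes (0%) were called with HC, 0 (0%) with SB and 0 (0%) with Bemp, with 42, 70 and 240 at an unadjusted p under 0.05. Against Ut in siAcly cells, 0 (0%) were called with HC, 0 (0%) with SB and 0 (0%) with Bemp, with 271, 1648 and 314 at an unadjusted p under 0.05. None of the 8 genes of the axis was called in any of the 6 comparisons. Cish, the gene that was higher in HC livers, stood at 216, 419 and 159 in siC HC cells, against 226, 469 and 380 in siC Ut cells (log2 difference -0.50, SE 0.46, adjusted p 1). By set, the values were 216 against 226 in set A and 419 against 469 and 380 in set B, and the siC HC value of 159 was from set C, which held no siC Ut library. With the sets in the fit the difference was -0.13 (SE 0.28, adjusted p 1).

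The spread of the axis in AML12 cells followed the 3 sets of libraries, which were found by clustering without the 10 genes or Acly. The sets are not groups of the study. Ghr averaged 258 ± 23.6, 151 ± 28.6 and 175 ± 60.95 in sets A, B and C, and Socs2 averaged 157 ± 10.0, 84.4 ± 9.77 and 96.1 ± 41.8 (SD, n = 8 each). Cish was highest in set B, at 240 ± 27.6, 399 ± 38.4 and 204 ± 110. Bcl6 was also highest in set B, at 154, 222 and 192. Igfbp1 was 2.76 to 13.04 in set A, 0 to 1.14 in set B and 0 to 1.56 in set C. The sets held 58% of the variance of Ghr, 65.5% of that of Cish, 66.7% of that of Socs2 and 67.2% of that of Bcl6, while the 8 groups of the study held 5.46%, 18.4%, 10.1% and 16.2%.

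Hepatocyte genes followed the same sets. Albumin (Alb) averaged 12659, 2969 and 1089 in sets A, B and C, and Apoa1, a lipoprotein gene of hepatocytes, averaged 5063, 133 and 67.3. For Socs3 the sets held 51.7% of the variance and the groups 39.1%. The groups held more than the sets for Socs1 (30.6% and 0.926%) and for Igfbp2 (27.7% and 16.9%), which was at 0 in 22 libraries. The groups use 7 degrees of freedom and the sets 2, so the groups take a larger share even with no effect. No effect of the groups on Socs1 or Igfbp2 is read from these shares. In siAcly Ut 3, which belongs to set C, Ghr (295), Cish (472), Socs2 (196) and Socs1 (87.9) were the highest of that set. Over the 24 libraries Ghr and Socs2 had a Pearson r of 0.88. With the sets added to the fit, 2469 genes (20.1%) were called for siAcly against siC over the mean of the treatments, and 0 of the 8 genes of the axis. Without the libraries labelled siC Bemp 1 and siC Ut 3, the genes of the axis were again not called in any comparison that held them (smallest adjusted p 0.166).

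**Figure D5:**
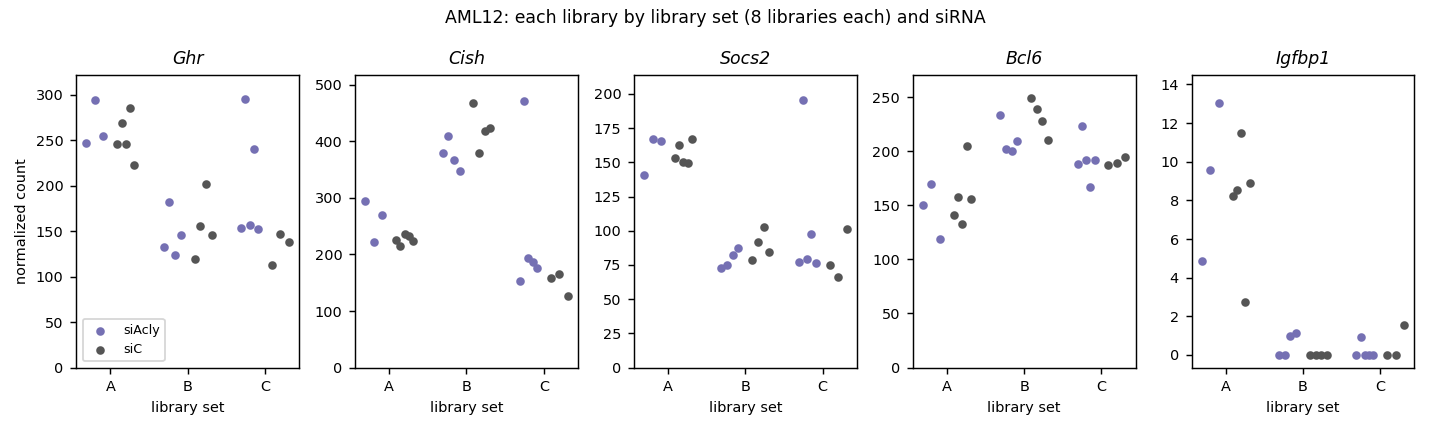
Normalized counts of 5 genes of the axis in the 24 AML12 libraries by library set A, B and C (8 libraries each), with siAcly and siC marked apart and 1 point for each library. Ghr and Socs2 were highest in set A, at means of 258 and 157, and Cish was highest in set B, at a mean of 399.

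Of the lists around the axis, 9 genes passed the test for siAcly against siC over the mean of the 4 treatments, where 4.77% of all genes were called, and with the library sets in the fit all 9 were again called. Of the 9, 6 were called without siC Bemp 2 or without siAcly SB 3, and 7 without the libraries labelled siC Bemp 1 and siC Ut 3. The phosphatase Ptpn6, a negative regulator of JAK signals, rose by 0.56 on the log2 scale and did not overlap between the siRNAs, and it rose by 0.72 in Ut cells alone. Gadd45g rose by 0.71 and, in Ut cells, by 1.07. Both calls in Ut cells (adjusted p 0.0481) were lost, with all others there, when siAcly Ut 3 was left out, and likewise with siC Ut 2 or 3 left out. The IL-6 family cytokine Il11 rose by 1.42 and Igfbp7 by 0.39. The shared IL-6 receptor chain Il6st fell by 0.56, and Pdk4, Trib1, Onecut1 and Foxo3 fell by 0.72, 0.51, 1.18 and 0.57. Adjusted p values of these 9 genes lay between 0.000681 and 0.0347.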

How the data were processed

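RNA-seq was analysed for 59 libraries in 17 groups. For trimming, the authors used the FASTQ toolkit 1.0.0. Alignment to UCSC mm10 was by RNAseq Alignment 2.0.2, which runs STAR, and median-of-ratios size factors came from an Illumina package of version 1.1. The deposited signal values are these normalized counts. Per the labels, liver and soleus libraries were depleted of rRNA, and the gastrocnemius and AML12 libraries used a stranded mRNA kit. Whole reads could not be recovered from the values, so no count model was used. Depth was estimated as the sum of a library divided by its most frequent low value, taken as 1 read.

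Values were tested as log2(value + 1), a scale that understates changes of low genes, for genes that reached 10 in a number of libraries not under the size of the smallest group. Each table had 1 limma fit over its groups (limma 3.58.1, R 4.3.3, with a variance trend). Benjamini-Hochberg adjustment covered all genes tested, with calls at 0.05. The test was checked on simulated data. Nothing says that cell libraries came from separate cultures, so their p values measure the spread between libraries. Genes of the axis were named throughout, and genes of the lists where they were called, at most the 3 with the largest difference per list and direction, with the 5 genes most correlated with Cish, Socs2 or Igf1. Others are named as chosen after their values were seen. The members and lists were chosen with earlier results of these data known. Alternatives were another pseudocount, no limit on low values, quantile normalization, a fit of the compared groups alone, a replicate block, and libraries left out. The library sets and the leaving out of doubtful libraries were chosen after seeing the data.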

Additional observations from a re-analysis of the deposited data

Results flagged for a closer look

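Within the liver and soleus groups, 40 sets of 5 values of the genes of the axis were read for a value far from the others, and 5 were found, where chance gives about 1 in 20. Socs3 stood at 355.5 in HC liver 4, with the next value at 156.8. Cish stood at 917.3 in STD soleus 5, with the next at 58.34. Igf1 stood at 138.3 in HC soleus 5, with the next at 66.18, and at 92.61 in STD soleus 4, with the next at 61.85. Igfbp2 stood at 28.3 in STD soleus 1, with the next at 12.09.

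For 4 genes, every HC library lay on one side of the mean of the libraries without HC in one tissue or time and on the other side in the other, and these differences were not tested. For Cish the log2 difference of HC over STD was 1.32 in liver and -1.77 in soleus, and for Socs3 it was 0.68 in liver and -0.33 in soleus. The STD soleus mean of Cish, 211, was set by STD soleus 5, and the other STD soleus libraries, at 16.6 to 58.3, also lay below it. The rule therefore does not show a turn of Cish between liver and soleus. For Socs2 the log2 difference of CTX-HC over CTX was -0.26 at 2 DPI and 1.08 at 30 DPI, and for Igfbp2 it was -1.26 at 2 DPI and 1.35 at 30 DPI, from values of 0 to 21.4. Single HC libraries crossed that mean for other genes whose means also turned, such as Cish in CTX-HC over CTX muscle, at -1.27 at 2 DPI and 1.49 at 30 DPI, and Ghr, Igf1 and Igfals between liver and soleus.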

How the results depend on the processing

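The count of genes of the axis called in CTX-HC 2 DPI against C, 2 in the analysis as reported, was 1 with no limit on low values (Ghr alone), 4 in a fit of the compared groups alone (Socs3 and Igfals in addition), 0 without C 2 and CTX 30 DPI 2, whose library numbers stand outside the run of the others, and 0 to 2 when 1 library was left out. It was 3 with a pseudocount of 5 and 3 with quantile normalization. The count over all genes in that comparison was 473 with no limit on low values, 4307 in the fit of the compared groups alone, 2165 with quantile normalization, 29 without C 2 and CTX 30 DPI 2, and 33 to 2141 with 1 library left out. In the other tested comparisons the count of genes of the axis was 0 under the alternatives run.

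Replicate numbers of liver and soleus did not pair the mice, with correlations of deviations from -0.11 to 0.40 over the 5 numbers, and with a replicate block the count of genes of the axis called in soleus was 0 and the difference of Cish there -1.77 (adjusted p 0.78). The log2 difference of Igf1 in CTX-HC over CTX muscle at 30 DPI was 0.58 without CTX-HC 30 DPI 3 and CTX 30 DPI 1, beside -0.13 with them. In AML12 cells the library sets in the fit took the count over all genes to 2469, beside 586 without them, that count was 296 without the libraries labelled siC Bemp 1 and siC Ut 3 and 264 to 1076 with 1 library left out (264 without siC Bemp 2, 1076 without siC HC 3), and the count of 23 in Ut cells was 0 when siAcly Ut 3 was left out, and likewise with siC Ut 2 or 3 left out, 1 without siAcly Ut 1, 4 without siC Ut 1 and 300 without siAcly Ut 2. Socs1 in liver and soleus, Igfbp1 in muscle and Igfbp1 and Igfbp2 in AML12 cells lay at or near 0, too low to compare.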

Other observations

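In soleus, the ligands and binding proteins of the IGF system other than Igf1, Igfals, Igfbp1 and Igfbp2 had higher means in HC mice for 8 of the 8 genes that passed the limit on low values, with a median log2 difference of 0.21 beside -0.01 over all genes. By limma, 0 of the 8 were called and 3 had an unadjusted p under 0.05. Summed fibroblast markers were 1852 to 5343 in HC soleus (median 3630) and 2238 to 3104 in STD soleus (median 2903), and macrophage markers had medians of 579 in HC soleus and 440.2 in STD soleus. Their part in these means was not tested. Igfbp7 averaged 730 in HC soleus and 609 in STD soleus (0.25, SE 0.09, adjusted p 0.884), and Igfbp6 averaged 375 in HC soleus and 317 in STD soleus (0.25, SE 0.11, adjusted p 0.972). The atrophy gene Fbxo32, a ubiquitin ligase that FOXO factors induce in muscle, averaged 5209 in HC soleus and 7057 in STD soleus (-0.45, SE 0.13, adjusted p 0.761). Igfbp6, Igfbp7 and Fbxo32 are named here after a look at their values.

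Of the male-biased liver genes, 7 passed the limit on low values in soleus and 7 of the 7 had lower means in HC soleus (median -0.92). These include Mup3, Mup7 and Mup20, which hepatocytes make. Summed hepatocyte markers were 21.6 to 868 in HC soleus (median 51.4) and 272 to 1618 in STD soleus (median 477). Their part in the lower means was not tested.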
